A study of Mus musculus with 21 samples.

Results

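Lepr, Ebf1, Ebf2, Ebf3, Foxc1, Prrx1 and Pdgfra were followed as the genes that mark or specify CXCL12-abundant reticular (CAR) cells, the stromal cells of the bone marrow that express the leptin receptor. They were named for that identity, with earlier results of these data in view, and found in the expression table by their Ensembl identifiers, and they are 7 of its 26852 genes. All 7 were among the 12976 genes that passed the filter on low values and were tested. CAR cells surround the sinusoids of the marrow and hold hematopoietic stem cells in place through CXCL12 and stem cell factor. In mice, the transcription factors FOXC1, EBF1 and EBF3 are known to maintain these cells and to keep the marrow cavity open for blood formation, while EBF1 is best known from B cells, where it sets the lineage. PRRX1 is a homeobox factor of limb mesenchyme, and PDGFRA is a receptor for platelet-derived growth factors carried by many mesenchymal cells.

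RNA-seq was made from Nes low mesenchymal cells, sorted from digested bone for weak GFP driven by Nestin, after removal of blood cells and staining for blood and endothelial markers. The hosts were Nestin-GFP NSG mice, which lack lymphocytes and so tolerate human grafts, and were 8 to 12 weeks old when the leukemia cells were given without conditioning. Of 21 libraries, 3 came from mice without human cells (ctrl). The other groups came from mice carrying HL60 or ML1, both human acute myeloid leukemia cell lines, which had been made to release sLP-mCherry, a red protein that enters neighbouring cells. Uptake marks closeness to leukemia cells only as far as the protein spreads, and a host without lymphocytes cannot show effects of adaptive immunity on the stroma. At the early stage of leukemia, cells that had taken up the protein (ch+) and cells that had not (ch-) were sorted apart, with 3 libraries of each for HL60 and 3 of each for ML1. At the late stage, Nes low cells were sorted without regard to the marker, with 3 libraries for each line. One label of the ML1 late libraries calls the mice unengrafted, against their titles and time point, and these libraries were kept as late. The ch+ and ch- cells are described as coming from the same marrow, but nothing in the labels says which libraries shared a mouse or whether mice were pooled, so the p-values measure only the spread between libraries.

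The values are the authors' regularized log2 expression, in which 1 unit is a doubling and weakly expressed genes are pulled toward their mean. The depth of each library is not given, and whole reads could not be recovered from such values. Back on the linear scale, the normalized counts of a library summed to between 11862642 and 14229380 (ctrl), 12260584 and 14743456 (ch-), 11208179 and 12648004 (ch+) and 7264989 and 9022185 (late). Differences were tested with limma in 1 fit over all libraries, 2-sided, and a gene is called when its Benjamini-Hochberg adjusted p is under 0.1. When each library was rescaled to the same sum, the all-gene median for late against ctrl went from 0.02 to 0.71, and the called genes from 1321 higher and 1474 lower to 7806 higher and 517 lower. A single gene, CT010467.1, held 29.7% to 34.2% of the sum in ctrl and 16.8% to 26.2% in late libraries, and its part in that shift was not tested. Late values are therefore also given relative to that median. Rescaling adds the same constant to all genes of a library, so this distance is nearly unchanged from the deposited scale. It is not a separate check of a change.

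The sorted cells expressed CAR cell genes beside those of bone and cartilage. In ctrl the osteoblast gene Col1a1 (mean 20.32), the cartilage gene Col2a1 (16.29) and Bglap (15.29) were at or above Cxcl12 (15.19). Among 18 further CAR cell genes Cxcl12 was the most abundant, with values between 14.89 and 15.57 (ctrl), 14.97 and 15.98 (ch-), 15.74 and 16.34 (ch+) and 15.95 and 16.44 (late). Lepr lay at 12.24 or above in every library. Nes, whose promoter drives the GFP, was modest at 6.61 to 7.87. The endothelial gene Pecam1 stayed between 4.53 and 6.21. Ptprc, which encodes CD45 on blood cells, was at 2.36 to 2.61 in ctrl and late libraries but reached 5.92 in ch- and 5.58 in ch+ libraries. Of the B cell markers, none of 6 in the table passed the filter. Vpreb1 (−1.86 in ctrl) and Cd79b (−1.26) lay near the floor of the table. Blnk, the strongest, had means of 4.17 (ch+), 3.73 (ctrl), 2.87 (ch-) and 2.63 (late). Like Ebf1 it was highest in ch+, but it was lowest in late, where Ebf1 was above ctrl. Blnk was too weak to be tested.

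Most of the CAR identity genes differed from ctrl in late leukemia. Against ctrl, 6 of 7 were called (5 higher, 1 lower), where 21.5% of all tested genes were called. Their median log2 fold change was 0.78 beside 0.02 for all tested genes. After rescaling 7 of 7 were called higher, but so were most of all tested genes, so that count does not set the 7 apart. In ch+ cells 4 of 7 were called against ctrl, all higher, beside 6.17% of all genes (median 0.36 beside 0.01). With 1 library left out in turn that count ran from 1 to 4, and without ctrl library 374 only Ebf1 was called. In ch- cells limma called 0 of 7, beside 1.92% of all genes, with 2 of 7 at an unadjusted p under 0.05. Between ch+ and ch- cells, 1 of 7 was called, Ebf1, beside 6.26%. Between late and ch+ cells 7 of 7 were called, 5 higher and 2 lower in late, beside 19.7%. The count after rescaling is not given, since rescaling raised late values against ch+ for genes in general. Once rescaled, Ebf1 and Pdgfra lay under the median of all genes. The 3 comparisons with ctrl share the same 3 ctrl libraries, so an extreme ctrl library moves all of them. In bulk RNA, more cells of the Lepr-expressing type and more RNA in each such cell cannot be told apart.

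**Figure D1:**
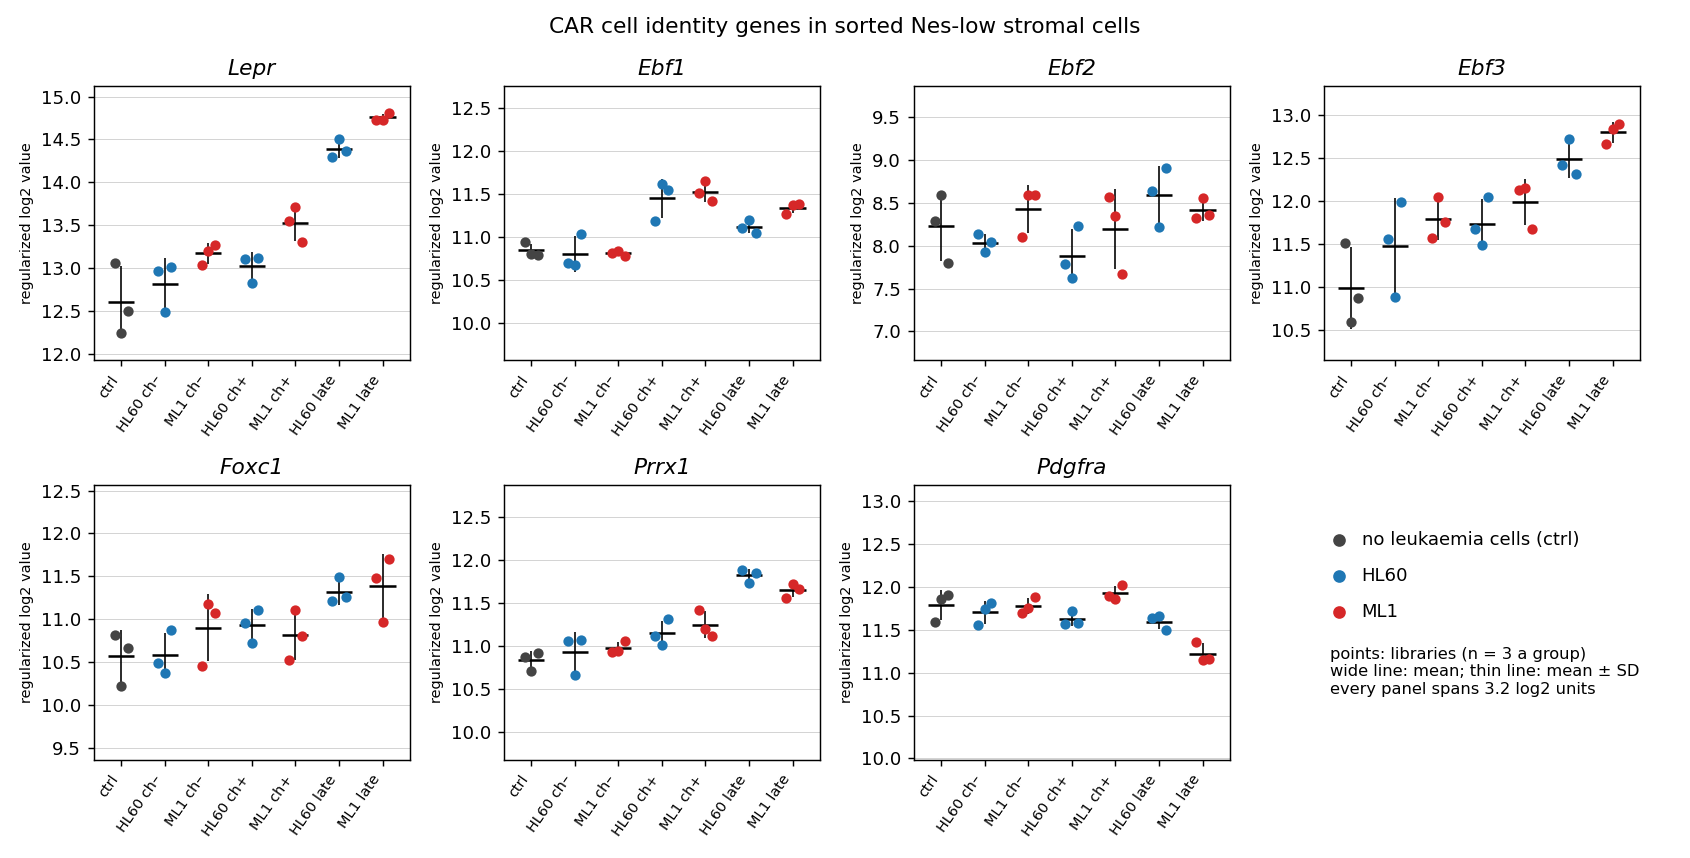
Regularized log2 value (vertical axis) of the 7 genes in each of 21 libraries, by group (horizontal axis; ctrl, then HL60 and ML1 for ch–, ch+ and late); points are libraries, wide lines means and thin lines mean ± SD of 3. All 6 late libraries lie above all 3 ctrl libraries for Lepr (14.29 or more against 13.06 or less), and for Ebf1 the ch+ libraries (11.19 or more) lie above the ch– libraries (11.04 or less). Of all tested genes, 19.1% did not overlap between late and ctrl and 3.01% between ch+ and ch–.

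**Figure D2:**
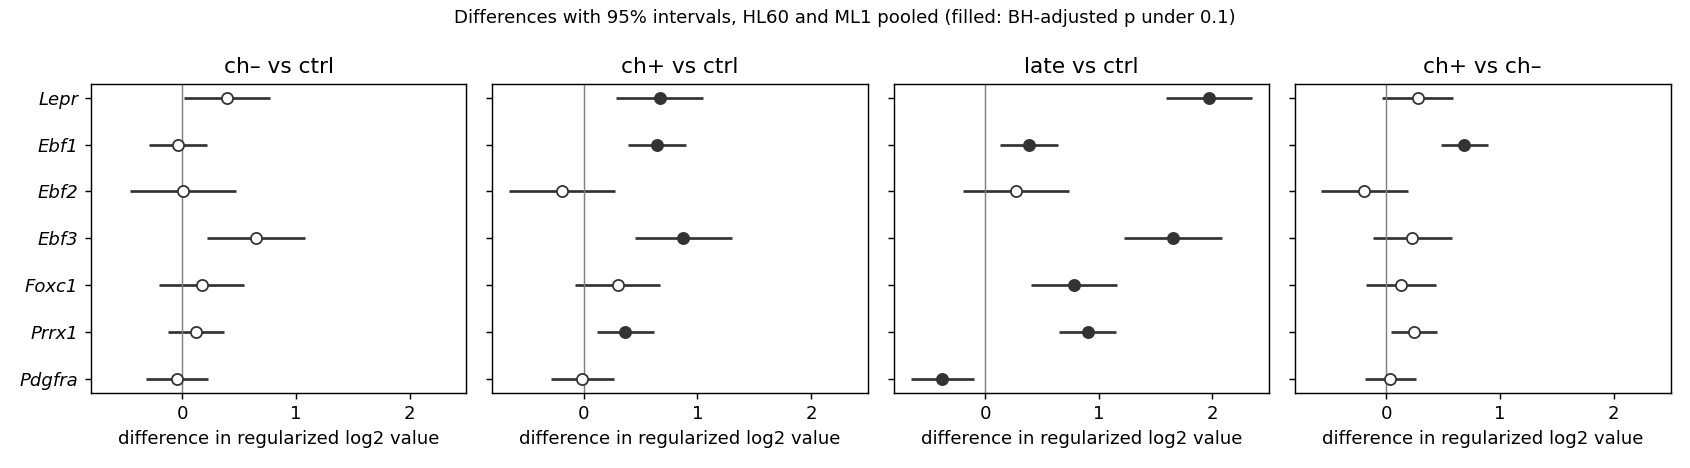
Difference in regularized log2 value between groups (horizontal axis) for each of the 7 genes (vertical axis), HL60 and ML1 pooled; points are estimates, bars 95% intervals, and filled points have an adjusted p under 0.1. Lepr reaches 1.97 in late against ctrl, and Ebf1 is the 1 filled point in ch+ against ch–; for Pdgfra in late the sign turns when libraries are rescaled to the same sum.

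Lepr (ENSMUSG00000057722, chromosome 4, 101717404 to 101815352, plus strand, GRCm38) encodes the leptin receptor, the defining surface marker of these cells. Its values in ctrl were 13.06, 12.24 and 12.50. In ch- libraries it was at 12.96, 12.48 and 13.01 with HL60 and 13.04, 13.20 and 13.27 with ML1, and in ch+ libraries at 13.11, 12.83 and 13.12 with HL60 and 13.54, 13.71 and 13.30 with ML1. In late libraries it reached 14.29, 14.51 and 14.36 with HL60 and 14.73, 14.73 and 14.81 with ML1. Every late library was higher than every other library, ML1 late libraries were the highest of all, and the ctrl library 373 reached into the early groups. Late Lepr was 3.92-fold that of ctrl (log2 fold change 1.97, SE 0.19, adjusted p = 1.22e-08; 95% interval 1.59 to 2.35), the 88th highest of the 12976 changes, or 1.95 above the median of all genes after rescaling. In ch+ cells it was 1.59-fold ctrl (log2 fold change 0.67, SE 0.19, adjusted p = 0.0355), a call that was lost without ctrl library 374 (0.49, adjusted p = 0.254) or 375 (0.62, adjusted p = 0.14). The ch- difference from ctrl was not called (log2 fold change 0.39, SE 0.19, adjusted p = 0.4; 95% interval 0.013 to 0.77), nor was that between ch+ and ch- (log2 fold change 0.28, SE 0.15, adjusted p = 0.395; 95% interval −0.035 to 0.59). With libraries blocked by the order of their title numbers, limma did call Lepr between ch+ and ch- (0.28, adjusted p = 0.0514). That block is not taken as a pairing, for reasons given below. Late cells exceeded ch+ cells in Lepr as well (log2 fold change 1.30, SE 0.15, adjusted p = 1.84e-07).

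Ebf3 (ENSMUSG00000010476, chromosome 7, 137193673 to 137314445, minus strand) encodes the EBF factor most tied to CAR cells. Its values were 11.51, 10.59 and 10.86 in ctrl. With HL60 they were 11.55, 10.88 and 11.99 in ch-, 11.68, 11.48 and 12.05 in ch+ and 12.42, 12.73 and 12.31 in late libraries. With ML1 they were 11.57, 12.05 and 11.75 in ch-, 12.13, 12.15 and 11.68 in ch+ and 12.66, 12.84 and 12.90 in late libraries. As for Lepr, all late libraries stood above all others, while ctrl library 373 and the HL60 ch- library 528 made ctrl and ch- overlap. Ebf3 rose 3.15-fold in late (log2 fold change 1.66, SE 0.21, adjusted p = 1.12e-06), 1.64 above the median after rescaling. It also rose in ch+ cells (log2 fold change 0.88, SE 0.21, adjusted p = 0.0119), a call that was lost without ctrl library 374 (0.68, adjusted p = 0.138). In ch- cells the estimate was 0.65 (95% interval 0.22 to 1.08; adjusted p = 0.157), which passed the threshold without ctrl library 373 (0.91, adjusted p = 0.0431) or HL60 ch- library 528 (0.80, adjusted p = 0.0275). The ch+ and ch- groups were not called apart (log2 fold change 0.23, SE 0.17, adjusted p = 0.563), whereas late exceeded ch+ (log2 fold change 0.78, SE 0.17, adjusted p = 0.00127). An antisense gene, Gm45278, shares 355 exon bases with Ebf3 and was far weaker (mean 5.15).

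Ebf1 (ENSMUSG00000057098, chromosome 11, 44617317 to 45008091, plus strand) was the 1 gene of the 7 called between ch+ and ch- cells in the fit without a block. It was at 10.94, 10.81 and 10.79 in ctrl. In ch- libraries it was at 10.69, 10.67 and 11.04 with HL60 and 10.82, 10.84 and 10.78 with ML1. In ch+ libraries it was at 11.19, 11.61 and 11.55 with HL60 and 11.51, 11.65 and 11.42 with ML1. All ch+ libraries were above all ctrl and all ch- libraries, and ch- libraries lay around ctrl. Late values were 11.11, 11.20 and 11.05 with HL60 and 11.27, 11.37 and 11.39 with ML1, above ctrl and overlapping ch+ through its lowest library, HL60 523, alone. Ebf1 was 1.61-fold higher in ch+ than in ch- cells (log2 fold change 0.68, SE 0.10, adjusted p = 2.73e-05), the 542nd highest of the 12976 changes, and was also raised against ctrl (log2 fold change 0.65, SE 0.12, adjusted p = 0.00132). The ch- cells did not differ detectably from ctrl (log2 fold change −0.038, SE 0.12, adjusted p = 0.941; 95% interval −0.29 to 0.22). In late cells Ebf1 was called higher than ctrl (log2 fold change 0.39, SE 0.12, adjusted p = 0.0298), but not without ctrl library 374 (0.37, adjusted p = 0.1) or 375 (0.36, adjusted p = 0.108). It was called lower in late than in ch+ cells (log2 fold change −0.26, SE 0.10, adjusted p = 0.0856), a call lost when any 1 of 8 of the 12 libraries was left out (HL60 late 397, 398, 399; ML1 late 581; HL60 ch+ 524, 525; ML1 ch+ 538, 539; −0.22 to −0.27, adjusted p up to 0.189), and after rescaling its sign turned (0.36) while it stayed under the median of all genes (0.63).

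Ebf2 (ENSMUSG00000022053, chromosome 14, 67233292 to 67430918, plus strand), an EBF family member known from brown fat and immature bone cells, was the weakest of the 7. Its values lay between 7.80 and 8.59 (ctrl), 7.93 and 8.59 (ch-), 7.63 and 8.57 (ch+) and 8.22 and 8.90 (late), and all groups overlapped. No comparison with ctrl was called: the difference was 0.28 in late (95% interval −0.19 to 0.74), −0.19 in ch+ (95% interval −0.66 to 0.28) and 0.0078 in ch- (95% interval −0.46 to 0.47). After rescaling the late difference was called at 0.97, or 0.26 above the median of all genes. Late exceeded ch+ narrowly (log2 fold change 0.46, SE 0.19, adjusted p = 0.0976), and leaving out any 1 of 8 of the 12 libraries ended that call (HL60 late 397, 399; ML1 late 581, 582, 583; HL60 ch+ 523, 524; ML1 ch+ 541; 0.38 to 0.50, adjusted p up to 0.223). Ebf2 shares 424 exon bases with the antisense gene Gm10860, which was close to absent (mean 0.59).

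Foxc1 (ENSMUSG00000050295, chromosome 13, 31806633 to 31812476, plus strand) encodes the forkhead factor needed for CAR cells to form and persist. It was at 10.82, 10.22 and 10.67 in ctrl. In late libraries it was at 11.21, 11.49 and 11.25 with HL60 and 11.48, 10.97 and 11.70 with ML1. Each late library was above each ctrl library, although ML1 late library 582 was close to the highest ctrl value. Early libraries ran from 10.38 to 11.17 in ch- and from 10.53 to 11.11 in ch+, overlapping the ctrl range. Foxc1 rose 1.72-fold in late (log2 fold change 0.78, SE 0.18, adjusted p = 0.00272), 0.76 above the median after rescaling. It was not called in ch+ (95% interval −0.077 to 0.67; adjusted p = 0.439) or ch- cells (95% interval −0.21 to 0.55; adjusted p = 0.775), nor between them (95% interval −0.18 to 0.44; adjusted p = 0.748). Late exceeded ch+ in Foxc1 (log2 fold change 0.48, SE 0.15, adjusted p = 0.0247).

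Prrx1 (ENSMUSG00000026586, chromosome 1, 163245119 to 163313710, minus strand) was at 10.87, 10.71 and 10.92 in ctrl. In ch+ libraries it was at 11.12, 11.01 and 11.31 with HL60 and 11.42, 11.20 and 11.12 with ML1, and in late libraries at 11.88, 11.74 and 11.85 with HL60 and 11.56, 11.72 and 11.66 with ML1. The ctrl, ch+ and late libraries formed 3 steps without overlap, whereas ch- libraries, from 10.66 to 11.07, spanned the ctrl range and part of that of ch+. Of all tested genes, 8.06% did not overlap between ch+ and ctrl and 8.75% between late and ch+. Prrx1 rose 1.87-fold in late (log2 fold change 0.90, SE 0.12, adjusted p = 3.04e-06), 0.89 above the median after rescaling. Its rise in ch+ cells was small (log2 fold change 0.36, SE 0.12, adjusted p = 0.0965), and leaving out any 1 of 7 of the 9 libraries ended the call (ctrl 373, 374, 375; HL60 ch+ 523, 525; ML1 ch+ 538, 539; 0.30 to 0.41, adjusted p up to 0.31). The ch- difference from ctrl (95% interval −0.13 to 0.37; adjusted p = 0.762) and that between ch+ and ch- (log2 fold change 0.24, SE 0.1, adjusted p = 0.207) were not called, although the latter was after rescaling (0.40, adjusted p = 0.032). Late exceeded ch+ (log2 fold change 0.54, SE 0.1, adjusted p = 0.000173).

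Pdgfra (ENSMUSG00000029231, chromosome 5, 75152292 to 75198215, plus strand) went the other way on the deposited scale. It was at 11.59, 11.86 and 11.91 in ctrl. In late libraries it was at 11.63, 11.66 and 11.50 with HL60 and 11.36, 11.15 and 11.16 with ML1. The ML1 late libraries were below every ctrl library and every other group, while the HL60 late libraries overlapped the lowest ctrl library. Early values ran from 11.56 to 11.88 in ch- and from 11.57 to 12.02 in ch+, around ctrl. The late value was 1.30-fold below ctrl (log2 fold change −0.38, SE 0.14, adjusted p = 0.0541), but without ctrl library 374 (−0.34, adjusted p = 0.174) or 375 (−0.32, adjusted p = 0.216), or ML1 late library 582 (−0.33, adjusted p = 0.114) or 583 (−0.33, adjusted p = 0.117), it was not called. After rescaling the difference turned to 0.32, called higher, while still 0.40 below the median of all genes. Against ch+ cells the late value was lower too (log2 fold change −0.36, SE 0.11, adjusted p = 0.0209), and this also turned on rescaling (0.25, against a median of 0.63). Neither ch+ (95% interval −0.29 to 0.26) nor ch- (95% interval −0.32 to 0.23) was called against ctrl for Pdgfra, nor were they called apart (95% interval −0.19 to 0.26). The antisense gene Gm42802 shares 456 exon bases with Pdgfra and had a mean of 2.06.

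Taken apart by cell line in a fit with 7 groups, the rises of Lepr, Ebf3, Foxc1 and Prrx1 in late cells were called with both. With HL60, 4 of 7 were called in late against ctrl (13.7% of all genes): Lepr (log2 fold change 1.79, SE 0.16, adjusted p = 2.94e-09), Ebf3 at 2.83-fold ctrl, Prrx1 at a log2 fold change of 0.99 and Foxc1 at 0.75, the last not called without ctrl library 374 (0.58, adjusted p = 0.102). With ML1, 6 of 7 were called (22% of all genes), among them Lepr (log2 fold change 2.15, SE 0.16, adjusted p = 7.18e-12), Ebf3 at 1.81, Ebf1 at 0.50 and Pdgfra, which was lower (log2 fold change −0.56, SE 0.12, adjusted p = 0.000999) but turned to 0.25 after rescaling. These counts say nothing of a difference between the lines, which was tested directly. In late cells 0 of 7 differed between HL60 and ML1 by limma (4.09% of all genes), with 2 at an unadjusted p under 0.05: Pdgfra (log2 fold change 0.37, SE 0.12, adjusted p = 0.115; 95% interval 0.12 to 0.62) and Lepr (log2 fold change −0.37, SE 0.16, adjusted p = 0.327; 95% interval −0.69 to −0.045). The late HL60 and ML1 libraries did not overlap for these genes or for Ebf1 and Prrx1, 4 of 7, beside 21.8% of all tested genes. Pdgfra was called without the filter (adjusted p = 0.0989), with a filter at a mean of 5 (0.0904), with array weights (0.0252) and in a fit of the compared groups alone (0.0944). After rescaling, the Pdgfra difference between the lines in late was smaller than on the deposited scale. With the ML1 late libraries left out for their label, Ebf1 (0.27, adjusted p = 0.275) and Pdgfra (−0.19, adjusted p = 0.491) were no longer called in late against ctrl, while the other 4 were.

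The early groups gave fewer calls in each line. In HL60 ch+ cells 2 of 7 were called against ctrl (5.33% of all genes), Ebf1 (log2 fold change 0.61, SE 0.13, adjusted p = 0.0068) and Ebf3 (log2 fold change 0.75, SE 0.22, adjusted p = 0.0515). The Ebf3 call was lost without ctrl library 374 or 375 or HL60 ch+ library 523 or 525 (0.55, 0.69, 0.78 and 0.59), while Lepr was gained without ctrl library 373 (0.65, adjusted p = 0.0125). In ML1 ch+ cells 4 of 7 were called (6.69% of all genes): Lepr (log2 fold change 0.92, SE 0.16, adjusted p = 0.000359), Ebf1 at 0.68, Ebf3 at 1.00 and Prrx1 at 0.41, the last lost without ctrl library 373 or 374 or ML1 ch+ library 538 or 539 (0.43, 0.35, 0.33 and 0.44; adjusted p up to 0.257). In HL60 ch- cells limma called 0 of 7 (1.57% of all genes), with 1 at an unadjusted p under 0.05; without library 528, Ebf3 was called (0.79, adjusted p = 0.0858). In ML1 ch- cells 2 of 7 were called (2.34% of all genes), Lepr (log2 fold change 0.57, SE 0.16, adjusted p = 0.0711) and Ebf3 (log2 fold change 0.81, SE 0.22, adjusted p = 0.0619), and both calls were lost without ctrl library 374 or 375 or ML1 ch- library 544 or 546, when Lepr was at 0.39, 0.52, 0.55 and 0.52 and Ebf3 at 0.61, 0.74, 0.68 and 0.82.

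The ch+ to ch- contrast in Ebf1 was found with each line. It was 1 of 7 called with HL60 (3.92% of all genes; log2 fold change 0.65, SE 0.13, adjusted p = 0.00333) and 1 of 7 with ML1 (4.25% of all genes; log2 fold change 0.72, SE 0.13, adjusted p = 0.00118). Between the lines, limma called 0 of 7 in ch+ (0.0154% of all genes, with 2 at an unadjusted p under 0.05) and 0 of 7 in ch- cells (0.0539%, with 1). Lepr had its lower values with HL60 at each stage. The HL60 minus ML1 difference was −0.50 in ch+ (95% interval −0.83 to −0.18, adjusted p = 0.53) and −0.35 in ch- cells (95% interval −0.67 to −0.026, adjusted p = 0.676). Its libraries did not overlap at any stage, and it was not called in this fit. Of all tested genes, 21.8% (late), 10.8% (ch+) and 11.6% (ch-) did not overlap between the lines. Calls between the lines under other settings are counted below.

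Levels of different genes were compared per kilobase of exon, as means of log2 normalized counts per kilobase. In ctrl the order was Lepr (9.78, SD 0.42, n = 3), Pdgfra (8.46), Foxc1 (8.02), Ebf3 (7.78), Ebf1 (7.56), Prrx1 (7.36) and Ebf2 (5.43). Lepr and Ebf2 stood apart, while the libraries of Pdgfra and Foxc1, of Foxc1 and Ebf3, and of Ebf3 and Ebf1 overlapped. In late libraries the order was Lepr (11.75, SD 0.22, n = 6), Ebf3 (9.44), Foxc1 (8.80), Prrx1 (8.27), Pdgfra (8.08), Ebf1 (7.94) and Ebf2 (5.71). Pdgfra had moved from the level just under Lepr to the range of Prrx1 and Ebf1, and Ebf3 to the level just under Lepr, overlapping Foxc1. In ch- libraries the order was Lepr (10.18), Ebf3 (8.43), Pdgfra (8.42), Foxc1 (8.19), Ebf1 (7.52), Prrx1 (7.48) and Ebf2 (5.44), with overlap of Ebf3 and Pdgfra, of Pdgfra and Foxc1 and of Ebf1 and Prrx1. The ch+ libraries gave Lepr (10.45), Ebf3 (8.66), Pdgfra (8.45), Foxc1 (8.32), Ebf1 (8.20), Prrx1 (7.73) and Ebf2 (5.24), where only Lepr and Ebf2 did not overlap a neighbour.

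Relatives and partners of the 7 genes numbered 11, of which 10 were tested and Ebf4 was too weak. In late against ctrl, 4 were higher and 3 lower. Pdgfrb, the sister receptor of Pdgfra, had a rise close to that of Lepr (2.00, SE 0.17, adjusted p = 3.2e-09), and rises were also called for Twist2 (1.75, SE 0.48, adjusted p = 0.0101) and Foxc2, the close relative of Foxc1 (1.53, SE 0.34, adjusted p = 0.00167), with a smaller rise of the EBF partner Zfp423 (0.61, SE 0.23, adjusted p = 0.0657). Twist1 (−1.37, SE 0.27, adjusted p = 0.000387), Pdgfrl (−1.11, SE 0.35, adjusted p = 0.0281) and the EBF antagonist Zfp521 (−0.74, SE 0.21, adjusted p = 0.0118) were lower; after rescaling Pdgfrl (−0.41) and Zfp521 (−0.043) were not called. Leprot, which lies upstream of Lepr and shares no exon with it in the annotation, was not called (0.26, SE 0.25, adjusted p = 0.551). In ch+ against ctrl, 0 of the 10 were called by limma. The ligands of the PDGF receptors were lower in late, 3 of 3 tested, with Pdgfc (−1.44, SE 0.25, adjusted p = 9.16e-05) changed most; after rescaling 1 of 3 was called. By line, 3 of 3 were lower with ML1 and 1 of 3, Pdgfc, with HL60, and all 3 were called lower with ML1 than with HL60 in late (Pdgfc 1.01, Pdgfd 0.89 and Pdgfa 0.77 higher with HL60).

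Most of the further CAR cell genes were higher than ctrl in late and in ch+ cells, as Lepr was. In late, 15 of 18 were higher and 1 lower (median 0.95), led by Cxcl14 (1.73, SE 0.22, adjusted p = 1.31e-06), Il34 (adjusted p = 0.00202), Hp (1.49, SE 0.28, adjusted p = 0.000197) and Grem1 (1.18, SE 0.24, adjusted p = 0.000521); the 1 lower gene, Cdh2 (−0.54), named after its value was seen, turned on rescaling. In ch+, 12 of 18 were higher (median 0.79), led by Angpt1 (1.36, SE 0.22, adjusted p = 0.000196) and Grem1 (1.24, SE 0.24, adjusted p = 0.00124). In ch-, 2 of 18 were higher (median 0.43). Unlike Lepr, Adipoq (−1.11, SE 0.20, adjusted p = 0.000116), Lpl (−0.41) and Cdh2 (−0.38) were lower in late than in ch+ cells, of which Lpl and Cdh2 changed sign on rescaling, and 4 of 18 were higher. Between ch+ and ch- cells 3 of 18 were higher beside Ebf1, namely Igfbp5 (0.53), Csf1 (0.50) and Cxcl12 (0.46). Of 13 genes of leptin receptor signalling, Stat3, the main mediator of the receptor, was higher in late (0.74, SE 0.16, adjusted p = 0.000881) together with Ptpn1 (0.61), and Irs1 was lower (−0.53), though not after rescaling (0.16); 3 of 13 called stood beside 21.5% of all genes. None of the 13 was called in ch+ against ctrl by limma. In the adipocyte list, 2 of 5 tested genes were higher in late, Pparg (1.97, SE 0.27, adjusted p = 4.27e-06) and Cebpa (1.39), and both also in ch+ cells (1.67 and 0.92). Pparg was higher in ch- cells as well (1.45, SE 0.27, adjusted p = 0.00314), and neither differed detectably between ch+ and ch- (0.22 and 0.037, not called).

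Markers of other cells moved in the same libraries, and their part in the results above was not tested. Of 12 osteoblast genes, 8 were lower and 1 higher in late, of which Runx2 changed sign on rescaling (0.19, not called); their summed normalized counts, mostly Col1a1, were 1260106, 1394621 and 1717520 in ctrl and 85667 to 530039 in late libraries (median 271821), where Lepr, Ebf3, Foxc1 and Prrx1 were highest. In ch+ limma called 0 of these 12, yet their sums, 945543 to 1110026 (median 986482), lay below those of every ctrl library. In ch- libraries the sums were 1043505 to 1461896 (median 1270783). Between the lines in late 9 of these genes were higher with HL60, where Lepr had its lower late values. Of 9 chondrocyte genes, 9 were lower in late and 8 in ch+; their sums, mostly Col2a1, were 154351, 73579 and 84452 in ctrl, 35530 to 83112 in ch- (median 54909), 9051 to 26490 in ch+ (median 14217) and 3075 to 18903 in late libraries (median 7648). Of 8 smooth muscle and pericyte genes, 7 were lower in ch+. In late, on the deposited scale, 4 were lower and Notch3 was higher (0.88, SE 0.18, adjusted p = 0.000755), and the late calls of this list after rescaling are not given. Their sums, with Rgs5 the strongest gene over all libraries, were 24314, 34194 and 18121 in ctrl, 13550 to 23680 in ch- (median 18773), 7604 to 9700 in ch+ (median 8631) and 14021 to 15885 in late libraries (median 15242). Between ch+ and ch- cells, where Ebf1 differed, 7 of 9 chondrocyte, 7 of 8 smooth muscle and 4 of 5 Schwann cell genes were lower in ch+, as were 2 of 12 osteoblast genes (Mepe, −1.80, and Spp1, −0.65), and 3 of 6 fibroblast genes, 1 chondrocyte gene and 1 Schwann cell gene were higher; summed fibroblast genes, Ly6a the strongest, lay between 1139 and 1665 (ctrl), 748 and 1192 (ch-), 2179 and 3680 (ch+) and 335 and 891 (late).

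Blood transcripts differed between stages, although the sort had removed CD45+ and Ter119+ cells. Of 7 blood cell genes tested, 7 were higher in ch+ and 6 in ch- than in ctrl, and 2 were lower in late; their sums, with Lyz2 the strongest gene over all libraries, were 468, 258 and 393 in ctrl, 991 to 2297 in ch+ (median 1853), 1300 to 2637 in ch- (median 1618) and 109 to 256 in late libraries (median 191). Of 8 red cell genes, 8 were higher in ch+ and 7 in ch-, and 4 lower in late; their sums, with Hbb-bs the strongest, were 336, 440 and 704 in ctrl, 4368 to 12938 in ch+ (median 8546), 5100 to 10258 in ch- (median 7750) and 96.2 to 132 in late libraries (median 102). With the lines pooled, limma called 0 of 7 blood and 0 of 8 red cell genes between ch+ and ch-; with HL60 alone Ptprc was called higher in ch+ (1.59, SE 0.48, adjusted p = 0.0753). With the lines pooled, endothelial genes (0 of 5 tested called against ctrl) and megakaryocyte genes (0 of 2) gave sums of 152 to 389 and 24.5 to 76.8 over all libraries. By line, 4 of 5 endothelial genes were lower in ML1 late than in ctrl on the deposited scale (Kdr, Cdh5, Pecam1 and Tek, −1.15 to −0.93). Rescaling raised late values against ctrl, and whether these calls stand after it is not given. Cdh5 was higher in ch+ than in ch- with HL60 (1.22). Between late and ch+ cells, where 7 of 7 genes above were called, Pecam1 (−0.87), Kdr (−1.02), Tek (−0.87) and the megakaryocyte gene Ppbp (−1.10) were lower in late. Larger falls were called there for all tested blood cell genes (−5.28 to −2.18) and all tested skeletal muscle genes (−4.38 to −2.26). Every tested fibroblast gene but Pi16 was also lower (−2.86 to −1.52). Those of 7 B cell genes, 6 in the table and none past the filter and Blnk the strongest, lay between 13.2 and 31.9 (ctrl), 11.5 and 25.2 (ch-, median 17.0), 15.3 and 42.7 (ch+, median 26.2) and 11.3 and 16.4 (late, median 13.1). Those of 4 skeletal muscle genes tested, all 4 higher in ch+ than in ctrl and Acta1 the strongest, lay between 29.4 and 99.9 (ctrl), 72.5 and 318 (ch-), 120 and 521 (ch+) and 23.9 and 28.6 (late); between ch+ and ch- limma called 0 of 4 with the lines pooled, and Acta1 (1.86) and Tnnt3 (1.77) with ML1.

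The 7 genes differed in how closely they followed each other over the 21 libraries, which share 7 groups. Pearson's r with Lepr was 0.94 for Ebf3, 0.92 for Prrx1, 0.81 for Foxc1, 0.46 for Ebf2, 0.44 for Ebf1 and −0.67 for Pdgfra. With the 7 group means removed, r with Lepr was 0.90 for Ebf3, 0.64 for Foxc1, 0.57 for Prrx1 and −0.51 for Pdgfra, so libraries of the same group with more Lepr also had more Ebf3. Ebf1 followed Ebf3 (r = 0.53, residual 0.58) more than Ebf2 (r = −0.095, residual 0.096). Outside the 7, the profiles most like that of Lepr among all tested genes were those of Fbn1 (r = 0.98, residual 0.82), Nid1 (0.97, residual 0.77), Il1rn (0.96, residual 0.85), Steap4 (0.96, residual 0.44) and Il1r1 (0.96, residual 0.54). Those most like Ebf3 were C4b, Il1rn and Picalm (r from 0.94 to 0.96), those most like Prrx1 were Fstl1, Olfml2b and Snai2 (0.95 to 0.97), and those most like Ebf1 were Man1a, Egfr and Anxa1 (0.88). For Foxc1 they were Tmem86a, Loxl1 and Deptor (0.84 to 0.88), for Pdgfra Gyg, Dnm1 and Clip4 (0.88 to 0.89) and for Ebf2 Zbtb2, Paqr4 and Adcyap1r1 (0.75 to 0.83). These are descriptions of 21 libraries, without a test.

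Because Lepr, Ebf3 and Prrx1 moved together, their promoters were searched for the letters bound by the factors among the 7. RefSeq windows of 300 bases (250 before and 50 after a start, GRCm38.p6) were at hand for 6 of the 7 genes, 8 windows in all; Ebf2 had none. On both strands, the EBF letters CCCNNGGGA occurred in 1 of the 8 windows, that of Ebf3, and in 6.56% of all 32851 windows; the homeodomain letters TAATTA occurred in 1, that of Prrx1, and in 5.29% of all; the forkhead letters GTAAACA occurred in 0, and in 3.65% of all. The matches did not overlap each other. Capitals mark the match in the sequences shown, which run 5′ to 3′ on the strand of the gene, and a match is a stretch of letters and not a shown binding site.
Ebf3 promoter, chr7:137314396-137314695, minus strand: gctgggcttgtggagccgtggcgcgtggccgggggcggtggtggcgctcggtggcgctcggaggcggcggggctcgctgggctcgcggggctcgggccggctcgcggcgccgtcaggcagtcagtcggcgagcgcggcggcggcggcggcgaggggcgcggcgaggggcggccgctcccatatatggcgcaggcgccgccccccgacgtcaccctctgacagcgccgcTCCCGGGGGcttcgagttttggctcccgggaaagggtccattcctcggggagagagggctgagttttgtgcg
Prrx1 promoter, chr1:163313601-163313900, minus strand: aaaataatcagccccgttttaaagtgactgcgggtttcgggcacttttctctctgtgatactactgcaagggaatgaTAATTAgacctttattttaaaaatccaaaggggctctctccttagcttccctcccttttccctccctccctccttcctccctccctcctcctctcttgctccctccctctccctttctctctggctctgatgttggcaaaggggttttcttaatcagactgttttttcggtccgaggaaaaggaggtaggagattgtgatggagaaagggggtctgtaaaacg
Lepr promoter, chr4:101717157-101717456, plus strand, shown for the gene with the largest change and without a match: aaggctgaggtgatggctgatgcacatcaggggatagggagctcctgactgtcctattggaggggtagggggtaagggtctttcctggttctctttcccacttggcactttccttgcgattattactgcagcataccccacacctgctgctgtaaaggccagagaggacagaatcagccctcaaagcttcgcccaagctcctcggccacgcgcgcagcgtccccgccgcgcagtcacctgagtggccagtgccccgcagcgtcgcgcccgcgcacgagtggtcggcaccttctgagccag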

How the data were processed

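The labels describe paired-end RNA-seq of amplified cDNA from sorted cells of 21 libraries, aligned to mm10 with STAR 2.5.1b and counted with RSEM 1.2.29 and Ensembl genes. Per the labels, the authors then made regularized log2 values with DESeq2 1.10.1 (the paper gives a later version), and these were deposited for 26852 genes; the methods text says log10, but the values (−2.33 to 22.44) can only be log2. Only a typical yield is stated, without the depth per library. No raw reads were analysed here.

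Genes with a mean of at least 3.32 (10 normalized counts) were tested with limma 3.58.1 (R 4.3.3; trend, 2-sided moderated t, Benjamini-Hochberg, threshold 0.1), with 4 groups (17 residual degrees of freedom) for pooled and 7 groups (14) for line-wise comparisons. With so few libraries, p-values rest on the variance model. Levels per kilobase used Ensembl exon lengths. Libraries were grouped by title. The authors describe strand-specific reads and counting, so antisense genes were not merged. The members and lists were chosen with earlier results of these data known; 1 planned marker is withheld and not reported here. Alternatives covered filters, scaling, trend, weights, fewer groups, threshold and single libraries left out.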

Additional observations from a re-analysis of the deposited data

Results flagged for a closer look

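Prrx1 in 1 ch- library with HL60, replicate 528, had a value of 10.66, and the gap to the next of the 6 ch- libraries was 0.64 of their whole range, past the limit of Dixon's test for an outlying value. It was 1 of 21 groups of 6 libraries checked in this way, where chance alone marks about 1 in 20. The same library was the lowest of the ch- libraries for 6 of the 7 genes, also Lepr (12.48), Ebf3 (10.88), Ebf1 (10.67), Ebf2 (7.93) and Foxc1 (10.38), but not Pdgfra. No technical or biological cause was tested, and the library was kept.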

How the results depend on the processing

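Of the values of single genes under all alternatives, 1696 kept direction and side of the threshold, 88 lost a call, 17 gained one and 61 changed sign, most of them differences near 0; the cause was not tested. Rescaling to equal sums changed the sign of Pdgfra in late vs ctrl (0.315), ch+ vs ctrl (0.0628), late vs ch+ (0.2523), HL60 late (0.3787), HL60 ch+ vs ch- (0.0369), ML1 late (0.2514) and HL60 vs ML1 in ch- (0.0362); of Ebf1 in late vs ch+ (0.357) and HL60 vs ML1 in ch- (0.0939); of Ebf2 in ch- vs ctrl (−0.0667), ML1 ch+ vs ctrl (0.0243) and HL60 vs ML1 in late (−0.0709); of Foxc1 in HL60 ch- vs ctrl (−0.0134) and ML1 ch+ vs ch- (0.0907); and of Prrx1 between the lines in late (−0.0691) and ch- (0.0621). Quantile normalization did so for Ebf1 in ch- vs ctrl (0.0067; HL60 0.0124, ML1 0.0011) and HL60 vs ML1 in ch- (0.0113) and for Pdgfra in ch+ vs ch- (−0.0456), and array weights for Ebf2 in ch- vs ctrl (−0.0184) and Pdgfra in ML1 ch- vs ctrl (0.0187).

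The share of all genes called under each setting is not given, so the following counts do not set the 7 apart. Rescaling also raised late values against ctrl for genes in general. Genes called of 7 moved to 2 in ch+ vs ctrl without the trend, 2 in ch+ vs ch- when rescaled and 7 in HL60 late when rescaled. They moved to 4 in late vs ch+ without the ML1 late libraries (an alternative chosen after seeing the data). In HL60 ch+ vs ctrl 1 was called with no filter, no trend or a threshold of 0.05. In ML1 ch- vs ctrl limma called 0 with no filter, rescaled, without the trend or at 0.05, and 1 with quantile normalization or the compared groups alone; between the lines in late it called 1 with no filter, a filter at 5 or the compared groups alone, and 2 when rescaled or with array weights.

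With 1 library left out in turn, the called genes ran from 1 to 4 in ch+ vs ctrl, 0 to 1 in ch- vs ctrl, 1 to 3 in HL60 ch+, 0 to 1 in HL60 ch- and 0 to 2 in ML1 ch-. Values whose sign changed ran as follows (lowest, highest). Pooled: Pdgfra ch+ vs ctrl −0.1127, 0.0479; ch- vs ctrl Ebf1 −0.0844, 0.0085, Ebf2 −0.2063, 0.1928, Foxc1 −0.0027, 0.2937, Pdgfra −0.1451, 0.0154; Pdgfra ch+ vs ch- −0.0164, 0.0737. HL60: ch- vs ctrl Ebf1 −0.1626, 0.0217, Foxc1 −0.1639, 0.1325; Ebf3 ch+ vs ch- −0.0353, 0.5203. ML1: Ebf2 late −0.0264, 0.3728, ch+ −0.2444, 0.2296; ch- vs ctrl Ebf1 −0.0589, 0.0139, Ebf2 −0.0098, 0.3893, Pdgfra −0.1108, 0.0497; ch+ vs ch- Ebf2 −0.4206, 0.0253, Foxc1 −0.3147, 0.051. HL60 vs ML1: Foxc1 late −0.2682, 0.0944, ch+ −0.0247, 0.2647; Ebf1 ch+ −0.1577, 0.0549, ch- −0.1305, 0.0539; Prrx1 ch- −0.1127, 0.0922; Pdgfra ch- −0.1236, 0.0063.

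No label matches ch+ to ch- libraries by mouse. Their title numbers run at a fixed offset within each line, and a block by the order of these numbers was fitted, an alternative chosen after seeing the data. Libraries at the same place showed little or no shared deviation (r of deviations from group means −0.021 to 0.046), and not every library correlated best with its own place. This check is weak, because deviations within so small a group must cancel, and it cannot exclude a shared mouse. Since neither the labels nor this check show a match, the block is not taken as a pairing. Under it 2 of 7 genes were called in ch+ vs ch- by limma, Lepr (0.28, adjusted p = 0.0514) beside Ebf1 (0.68, adjusted p = 2.76e-05), among 945 called of all genes against 812 without it; Prrx1 was not called (0.24, adjusted p = 0.224). With HL60 and with ML1 apart, 1 of 7 was called, Ebf1, and no other call changed. The planned check of protein identity among the EBF factors was not run, since no protein table was at hand. The depth of each library is unknown, so the precision it allows was not computed, and regularized values understate changes of weak genes.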
